A study of Rattus norvegicus with 20 samples.

Results

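Transcript levels of 5 regulators of muscle fuel use, Ppargc1a, Ppara, Slc2a4, Pdk4 and Cd36, were followed in the soleus of rats with and without injury to the upper thoracic spinal cord. These genes were taken by their Ensembl identifiers, which the deposited table does not pair with symbols, and they are 5 of its 24613 rows: ENSRNOG00000004473 (Ppargc1a), ENSRNOG00000021463 (Ppara), ENSRNOG00000017226 (Slc2a4), ENSRNOG00000009565 (Pdk4) and ENSRNOG00000005906 (Cd36). All 5 groups were Sprague-Dawley rats whose age is not given in the labels, with 4 libraries a group, described as separate animals. They were uninjured rats (given the same 11.5-week time label as contused rats), rats with a complete transection at T2 (8.5 weeks after injury), unexercised rats contused at T2 with 25 g-cm (11.5 weeks), and contused rats that swam or that walked in shallow water (both 13.5 weeks). Exercise started at 2.5 weeks and was given on 5 days a week for 10 weeks. Per the design text all rats, controls included, lived in small cages that restrict movement, so every group shares this housing. Time differs between most groups together with injury or exercise, and the effects of each cannot be told apart.

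The soleus is a slow postural muscle that relies on mitochondria and burns both fatty acids and glucose. Ppargc1a encodes PGC-1α, a coactivator that is induced by muscle activity and drives mitochondrial and oxidative genes. Ppara encodes PPARα, a nuclear receptor for fatty acids that PGC-1α can coactivate and that switches on genes of fatty acid oxidation. Slc2a4 encodes GLUT4, the transporter that insulin and contraction bring to the muscle membrane to take up glucose. Pdk4 encodes a kinase that inactivates pyruvate dehydrogenase and so holds glucose carbon out of the mitochondria, and it is a known PPAR target that responds to fasting. Cd36 encodes a carrier for uptake of long-chain fatty acids.

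Promoters are shown for Ppargc1a and Ppara, since these were the members whose levels passed the test between groups. Each sequence, from RefSeq on the GRCr8 build, runs from 250 bases before the annotated start of the gene to 50 bases after it, 5′ to 3′ on the gene's strand. The deposited counts name another build, rn6, and which start site soleus uses cannot be read from counts per gene. Capitals mark a cyclic AMP response element (CRE, TGACGTCA) in Ppargc1a, at chr14:63634058-63634357 on the + strand, and the core of an NRF1 motif (CGCATGCG) in Ppara, at chr7:118712357-118712656 on the + strand. Both motifs read the same on either strand.
Ppargc1a: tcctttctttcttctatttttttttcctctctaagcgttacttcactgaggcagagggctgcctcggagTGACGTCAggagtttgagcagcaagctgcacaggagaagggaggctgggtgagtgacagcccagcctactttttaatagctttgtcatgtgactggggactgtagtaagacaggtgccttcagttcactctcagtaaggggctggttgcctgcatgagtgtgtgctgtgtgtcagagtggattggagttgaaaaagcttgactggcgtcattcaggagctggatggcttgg
Ppara: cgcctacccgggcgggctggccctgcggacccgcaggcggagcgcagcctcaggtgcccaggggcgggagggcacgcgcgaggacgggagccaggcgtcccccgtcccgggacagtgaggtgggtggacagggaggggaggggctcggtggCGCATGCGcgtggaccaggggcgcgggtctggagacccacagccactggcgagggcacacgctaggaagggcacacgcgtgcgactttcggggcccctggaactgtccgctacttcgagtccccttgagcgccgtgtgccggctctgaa
The CRE of Ppargc1a begins 181 bases before the start, and 612 of 33469 promoters of this length (1.83%) hold the motif. The NRF1 motif of Ppara begins 99 bases before the start, and 554 promoters (1.66%) hold it. The Ppara promoter also held 2 GC boxes (GGGCGG, searched on both strands), which do not overlap the NRF1 motif; 33.1% of promoters hold at least 1. The Ppara stretch was 73.7% G and C, against a median of 51.7% over all promoters, and the Ppargc1a stretch 50.3%. Of the 5 genes 4 had a promoter entry, and Slc2a4 had none. No match to the element bound by estrogen-related receptors (TCAAGGTCA, both strands), partners of PGC-1α, lay in these 4 windows, and 0.433% of all promoters hold it.

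Counts per library ran from 21165832 to 39729930, and levels are given as CPM, the count set against the library's total after TMM scaling. Of the 5 genes, 4 passed the filter on low counts along with 13398 of 18618 genes that had any count, and each of these 4 had counts in all 20 libraries. Counts per library ran from 173 to 853 for Ppargc1a, from 42 to 389 for Ppara, from 16316 to 32014 for Slc2a4 and from 1847 to 12153 for Pdk4. Transection library 3 had the fewest genes with a count (13837, against 15037 to 16103 elsewhere) and the lowest scaling factor, at 0.711. The gene lists for the rest of the pathway and for markers of muscle, fat, endothelium and leukocytes were written as symbols, which could not be matched to the identifiers, so the cell types behind each level were not tested.

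The row given for Cd36 held almost no counts. It had 8 counts over the 20 libraries, in 5 libraries, with at most 3, in contusion library 2. The limit that 3 counts set was 0.0702 to 0.144 CPM per library, for counting error only, and 19 libraries lay below their own limit. Cd36 is known as an abundant transcript of slow muscle, so the row goes against its label, and the cause was not tested. It was removed by the filter, and no level or difference of Cd36 was taken from it.

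Ppara fell after transection, and its 4 transection libraries were the lowest of all 20. In uninjured muscle it stood at 6.38, 8.24, 9.50 and 8.33 CPM, and after transection at 2.43, 1.53, 3.80 and 1.64 CPM. The groups did not overlap, as in 28.8% of genes. The highest transection library, at 3.80 CPM, lay below the lowest of the other 16 libraries, at 4.06 CPM. How many other genes set transection apart from all 16 was not counted. The means were 8.11 ± 1.29 and 2.35 ± 1.04 CPM (SD, n = 4 each), and the log2 fold change was -1.80 (95% interval -2.44 to -1.16, SE 0.31, edgeR adjusted p = 2.47e-04), or 3.49-fold lower. Only 272 of 13398 tested genes had a lower log2 fold change in this comparison. In bulk tissue, fewer cells that express the gene and less transcript in each cannot be told apart. Of the 4 genes tested, Ppara was the only one called between transection and uninjured muscle, where 28.3% of all genes were called and 14.9% were called lower.

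Ppara stood higher after contusion, an incomplete injury, than after transection. Transection muscle was labelled 8.5 weeks, and contusion and uninjured muscle 11.5 weeks, so injury and time cannot be told apart. After contusion alone Ppara stood at 5.68, 7.64, 4.06 and 5.97 CPM, a mean of 5.84 ± 1.47 CPM (SD, n = 4). This range overlapped the uninjured one, and the log2 difference of -0.47 (SE 0.29, 95% interval -1.09 to 0.14) did not pass (edgeR adjusted p = 0.637). The direct test put transection below contusion, by 2.51-fold (log2 value -1.33 ± 0.31 SE, edgeR adjusted p = 6.47e-03), and with no overlap between the libraries, as in 21.7% of genes. In that comparison 15.5% of genes were called and 9.46% were called lower.

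These Ppara calls held in each library left out in turn and in each other setting tried. Without transection library 3, the highest of its group, the log2 fold change against uninjured muscle was -2.14 (edgeR adjusted p = 1.07e-04). The most abundant 50 genes held 53.7 to 60.2% of counts in transection libraries and 43.9 to 46.6% in uninjured ones, and scaling factors were 0.711 to 0.953 and 0.982 to 1.09. Scaled by library totals alone, where the median of all genes moved to -0.32, the value was -2.17 (edgeR adjusted p = 6.32e-05).

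**Figure D1:**
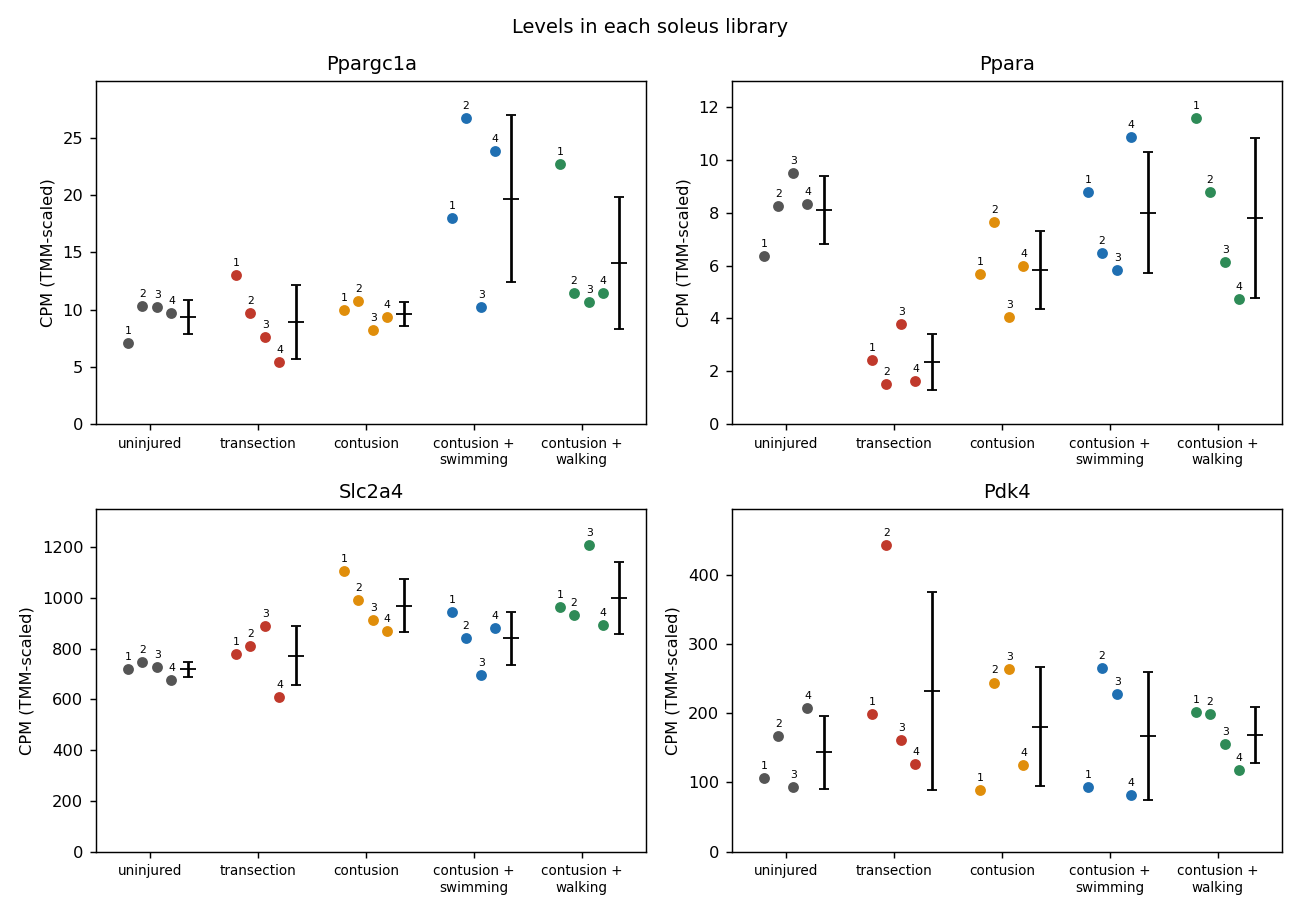
CPM (vertical axes, from 0) of Ppargc1a, Ppara, Slc2a4 and Pdk4 in each of the 20 libraries, by group on the horizontal axis; points are libraries with their replicate number, and the bars give the mean and SD of 4 libraries. All 4 transection libraries lie lowest for Ppara, and 3 swimming libraries and walking library 1 lie highest for Ppargc1a.

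With exercise, Ppara covered the uninjured range. Swimming libraries stood at 8.79, 6.49, 5.85 and 10.9 CPM and walking libraries at 11.6, 8.80, 6.12 and 4.73 CPM. The means, 8.00 ± 2.29 and 7.81 ± 3.04 CPM (SD, n = 4 each), lay near the uninjured mean of 8.11 CPM and above that of contusion alone. Neither exercise differed from contusion alone by the test: the log2 differences were 0.46 (95% interval -0.15 to 1.07, edgeR adjusted p = 0.371) for swimming and 0.42 (-0.20 to 1.03, edgeR adjusted p = 1.00) for walking, where 0% of all genes were called by edgeR (3.28% had an unadjusted p below 0.05), DESeq2 and voom. Against uninjured muscle the intervals were -0.62 to 0.59 for swimming and -0.66 to 0.55 for walking, which leave room for differences of about the size seen after contusion. The groups therefore ranked as uninjured, swimming, walking, contusion and transection. The neighbours among the first 4 in that order were not shown to differ, and only the step from contusion to transection passed. Transection was not compared with the exercised groups by a test.

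Ppargc1a was higher after swimming. It stood at 18.0, 26.8, 10.2 and 23.8 CPM in swimming libraries, at 9.96, 10.8, 8.24 and 9.39 CPM after contusion alone, and at 7.12, 10.3, 10.2 and 9.68 CPM in uninjured muscle. Swimming libraries 1, 2 and 4 lay above every contusion and uninjured library, while library 3 lay among them. The means were 19.7 ± 7.31, 9.59 ± 1.07 and 9.34 ± 1.51 CPM (SD, n = 4 each). Against uninjured muscle Ppargc1a rose by a log2 value of 1.07 (SE 0.29, 95% interval 0.47 to 1.68, edgeR adjusted p = 0.0142), or 2.11-fold, and 636 of 13398 genes had a higher value. In this comparison 20.2% of genes were called and 10.1% were called higher, and Ppargc1a was the only one of the 4 genes that passed. The 2702 genes called fell to 1477 without uninjured library 4. The call held in each setting tried, with adjusted p-values of 4.23e-03 to 0.0489 when single libraries were left out (edgeR).

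Against contusion alone the change in Ppargc1a was of the same size but rested on the edge of the threshold. The log2 fold change was 1.04 (SE 0.29, 95% interval 0.43 to 1.64, edgeR adjusted p = 0.0468), or 2.05-fold, where 4.55% of genes were called and 2.29% were called higher. These 610 genes fell to 1, 70 or 52 when contusion library 1, 2 or 4 was left out, and to 395 or 112 when swimming library 1 or 2 was. The call was lost when any of contusion libraries 1, 2, 3 or 4 or swimming libraries 1, 2 or 4 was left out, with log2 values of 0.86 to 1.10 and edgeR adjusted p-values of 0.0604 to 0.128. It held without swimming library 3 (1.25, edgeR adjusted p = 0.0296). It was also lost with the compared groups alone (edgeR adjusted p = 0.0632), without the low-count filter (0.0553) and without swimming library 2 and transection library 3 together (log2 value 0.83, edgeR adjusted p = 0.102). It held with DESeq2 (adjusted p = 0.0101) and with voom (0.0167).

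Walking libraries divided unevenly for Ppargc1a. They stood at 22.8, 11.5, 10.7 and 11.4 CPM, a mean of 14.1 ± 5.79 CPM (SD, n = 4). Library 1 lay among swimming libraries 1, 2 and 4. The other 3 walking libraries lay just above the uninjured ones, so walking and uninjured libraries did not overlap, as in 9.50% of genes. The log2 differences were 0.59 from uninjured (95% interval -0.01 to 1.19, edgeR adjusted p = 0.374) and 0.55 from contusion alone (-0.05 to 1.16, edgeR adjusted p = 1.00), and neither passed. Without walking library 1 they were 0.25 and 0.23. The direct test between swimming and walking gave a log2 difference of 0.48 (95% interval -0.11 to 1.08, edgeR adjusted p = 0.419), so the exercises were not shown to differ in Ppargc1a. Without walking library 1 that difference was 0.83 (edgeR adjusted p = 0.0999), and without swimming library 2 it was 0.30 (edgeR adjusted p = 0.656). Between the exercises 0.00746% of genes were called, which is 1 gene, against 280 genes without walking library 1, 145 with DESeq2 and 315 with voom, and 0 without swimming library 1 or walking library 2, 3 or 4.

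Some of the libraries with high Ppargc1a also stood out by scaling. Swimming libraries 1 and 4 and walking library 1 had the 3 highest scaling factors of the 20, at 1.18, 1.17 and 1.16, and 44.0 to 44.5% of their counts in the 50 most abundant genes. That share was not particular to them: uninjured library 1, at 7.12 CPM of Ppargc1a, had 43.9%. Swimming library 2, the highest for Ppargc1a, had a factor of 1.07 and 49.6%. Scaled by library totals alone, the change against contusion was 1.22 (edgeR adjusted p = 0.0488) and that against uninjured muscle 1.16 (edgeR adjusted p = 0.0220). The part of library composition in these levels was not otherwise tested.

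Transection left Ppargc1a without a detected change. Its libraries stood at 13.0, 9.71, 7.64 and 5.42 CPM, a mean of 8.94 ± 3.23 CPM (SD, n = 4), wider than the uninjured range on both sides. The log2 difference from uninjured muscle was -0.06 (95% interval -0.67 to 0.54, edgeR adjusted p = 0.895). Contusion alone gave 0.04 (-0.57 to 0.64, edgeR adjusted p = 0.985). These intervals exclude a change of the size found for Ppara after transection. From high to low the groups ranked as swimming, walking, contusion, uninjured and transection, and no neighbours in that order were shown to differ.

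**Figure D2:**
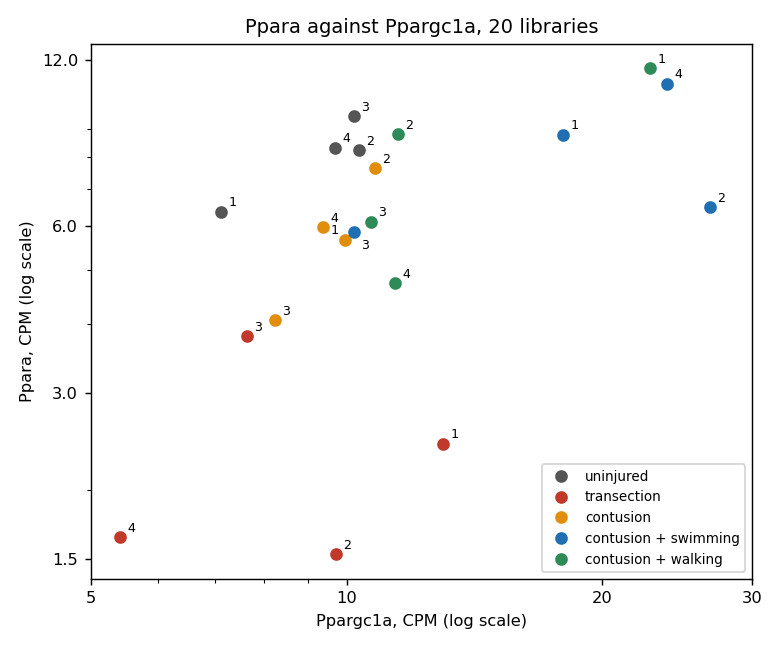
Ppara against Ppargc1a in CPM, both on log axes, for the 20 libraries coloured by group and numbered by replicate. Transection libraries lie at the bottom over most of the Ppargc1a range up to 13.0 CPM, and swimming libraries 1, 2 and 4 and walking library 1 lie to the right.

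Slc2a4 had the steadiest level of the 4 genes, with a coefficient of variation of 17.0% over all libraries. In uninjured muscle it stood at 721, 749, 728 and 676 CPM, and after contusion alone at 1105, 993, 913 and 868 CPM. The groups did not overlap, as in 7.52% of genes. The means were 718 ± 30.6 and 969.7 ± 104 CPM (SD, n = 4 each). The log2 difference was 0.43 (95% interval 0.14 to 0.73, SE 0.14). The unadjusted edgeR p was 6.43e-03, and the difference did not pass (edgeR adjusted p = 0.258). No gene passed in this comparison (0% of those tested with edgeR), 10% had an unadjusted p below 0.05, and DESeq2 called 102 genes and voom 24, none of them a member. With edgeR, 18 genes passed when uninjured library 2 was left out, and 16 when library 3 was.

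Walking libraries showed a Slc2a4 level like that of contusion alone. They stood at 965, 932, 1207 and 892 CPM, with a mean of 999 ± 142 CPM (SD, n = 4). All lay above the uninjured libraries, and 9.50% of genes likewise had no overlap in this comparison. The log2 difference from uninjured muscle was 0.48 (SE 0.14, 95% interval 0.18 to 0.77, edgeR adjusted p = 0.121), where 0.493% of genes were called. These 66 genes fell to 12 without uninjured library 1, 0 without uninjured library 4, 12 without walking library 1, 5 without walking library 3 and 35 without walking library 4. DESeq2 called it (0.47, adjusted p = 0.0297) among 371 genes, and so did voom (0.50, adjusted p = 0.0309) among 388. From contusion alone the difference was 0.04 (-0.25 to 0.34).

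The mean Slc2a4 levels of the swimming and transection groups lay between those of uninjured and contused muscle. Swimming libraries stood at 944, 842, 696 and 881 CPM, a mean of 841 ± 105 CPM, and transection libraries at 780.3, 812, 888 and 612 CPM, a mean of 773 ± 117 CPM (SD, n = 4 each). Both ranges overlapped the uninjured one. In all, 11 of 12 contused libraries, exercised or not, lay above the highest uninjured library for Slc2a4, and swimming library 3 did not. How many other genes do so was not counted, and no contused group passed against uninjured muscle with edgeR. The log2 differences from uninjured muscle were 0.23 (-0.07 to 0.52, edgeR adjusted p = 0.264) for swimming and 0.11 (-0.19 to 0.40, edgeR adjusted p = 0.622) for transection. The sign of the latter turned when libraries were scaled by their totals alone (-0.25), where the median of all genes moved to -0.32.

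Between the injuries Slc2a4 was 0.33 lower on the log2 scale after transection than after contusion (95% interval of the difference -0.62 to -0.03) and was not called (edgeR adjusted p = 0.1251). With voom it was called (-0.39, adjusted p = 0.0239), as it was when scaled by library totals alone (-0.58, edgeR adjusted p = 6.49e-03). In the latter scaling the median of all genes moved to -0.23, and 224 genes were called higher and 2297 lower. The log2 difference of swimming from contusion alone was -0.21 (edgeR adjusted p = 0.412) and that of swimming from walking was -0.25 (edgeR adjusted p = 0.402). The groups ranked as walking, contusion, swimming, transection and uninjured. No neighbours in that order were shown to differ, and swimming and transection, whose ranges overlap, were not compared by a test.

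Pdk4 varied widely between rats of the same group. It stood at 106, 167, 94.1 and 207 CPM in uninjured muscle, at 199, 442, 161 and 127 CPM after transection, and at 88.9, 244, 264 and 126 CPM after contusion. Swimming libraries stood at 94.0, 265, 227 and 81.5 CPM and walking libraries at 202, 199, 156 and 118 CPM. The ranges overlapped in each of the 8 comparisons. The coefficient of variation within a group ran from 23.6% in walking to 61.6% in transection libraries, and the SD within groups on the log2 scale was 0.69, against 0.18 for Slc2a4 and 0.45 for both Ppargc1a and Ppara.

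No difference in Pdk4 passed. The largest was transection against uninjured muscle, with means of 232 ± 143 and 143 ± 53.1 CPM (SD, n = 4 each) and 0.69 between them on the log2 scale (95% interval -0.20 to 1.59, SE 0.43, edgeR adjusted p = 0.239). Transection library 2 held 442 CPM, and without it the difference was 0.16. The means of the other groups were 181 ± 86.4 after contusion, 167 ± 93.1 after swimming and 168 ± 39.8 CPM after walking (SD, n = 4 each), and the SE of 0.43 in each comparison means that only large changes could have been called. The groups ranked as transection, contusion, walking, swimming and uninjured, and no neighbours were shown to differ.

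**Figure D3:**
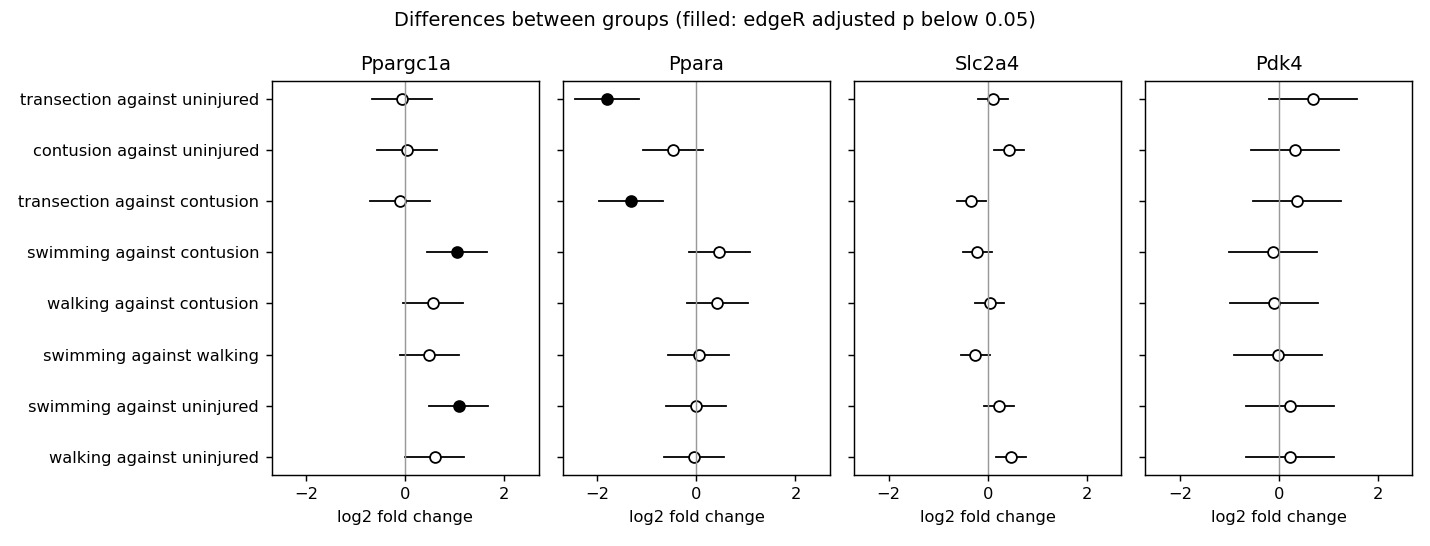
Log2 fold changes (points) with 95% intervals (lines) of Ppargc1a, Ppara, Slc2a4 and Pdk4 in the 8 comparisons, first group minus second; filled points have an edgeR adjusted p below 0.05. Ppara is filled for transection against uninjured and against contusion, and Ppargc1a for swimming against contusion and against uninjured.

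Counts of Pdk4 were also set against those of Slc2a4 in the same library, which needs no scaling between libraries. Relative to Slc2a4, Pdk4 counts were 12.9 to 30.6% in uninjured libraries. The range was 18.1 to 54.5% with transection, 8.04 to 28.9% with contusion, 9.25 to 32.7% with swimming, and 12.9 to 21.3% with walking. These percentages are not corrected for transcript length and only their differences between libraries can be read. All ranges overlapped. The largest difference from uninjured muscle was 0.50 on the log2 scale, after transection, with group means of -1.90 ± 0.71 and -2.40 ± 0.57 (SD, n = 4 each, exact two-sided permutation p = 0.343, adjusted p = 1.00 over 8 comparisons), where the smallest p possible was 0.0286. Without transection library 2, at 54.5%, it was 0.16, and without uninjured library 3 it was 0.32. Between the injuries it was 0.66 (exact permutation p = 0.314, adjusted p = 1.00). Swimming libraries fell apart, with libraries 2 and 3 at -1.66 and -1.61 and libraries 1 and 4 at -3.33 and -3.43.

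**Figure D4:**
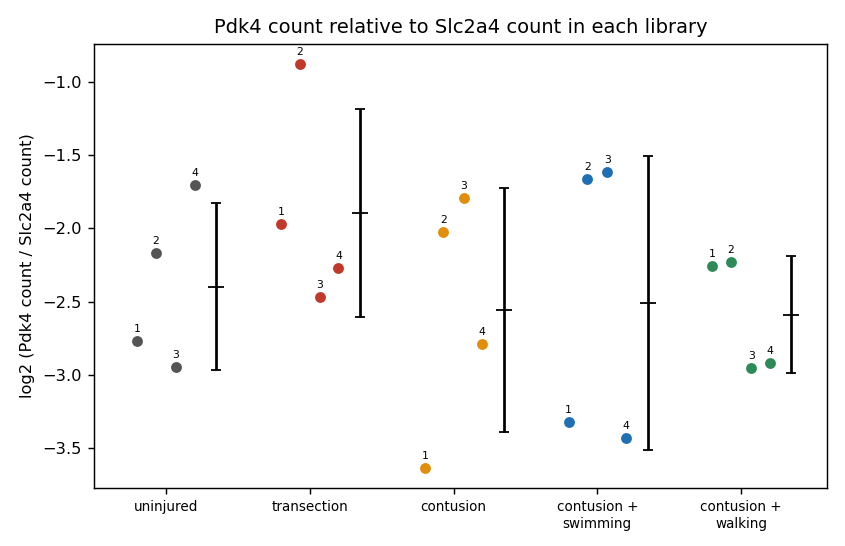
Log2 ratio of Pdk4 to Slc2a4 counts (vertical axis) in each library by group (horizontal axis), with replicate numbers and the mean and SD of 4 libraries. Every group overlaps the others, and swimming libraries form a high and a low pair.

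Within groups the 4 genes were not shown to vary together. With group means removed, log2 levels of Ppargc1a and Ppara had Pearson r = 0.50 and Spearman rho = 0.47 over 20 libraries (permutation p within groups 0.0799 and 0.0845, adjusted 0.445 and 0.507 over 6 pairs), and r = 0.33 without the 2 libraries farthest from the median of Ppargc1a. Without transection library 3 and swimming library 2 the value was r = 0.77 (permutation adjusted p = 4.62e-03), so the relation depends on which libraries enter. Walking library 1 and swimming library 4 were high for both genes, while swimming library 2 was high for Ppargc1a and at 6.49 CPM for Ppara. Transection library 3 was highest of its group for Ppara, at 3.80 CPM, but below its group mean for Ppargc1a, at 7.64 CPM. Swimming library 2 and transection library 3, left out for r = 0.77, thus ran against the relation. The other pairs had r from -0.22 (Ppara and Pdk4) to 0.38 (Ppara and Slc2a4), none with an adjusted permutation p under 0.445.

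The genes most like each of these over the 20 libraries were found by Pearson r of log2 CPM among 11565 others of at least 1 CPM. They can be given by identifier only, and the values, which include the differences between groups, are descriptions. Ppara had the closest companions: ENSRNOG00000014675 reached r = 0.92, and 141 genes lay above 0.8. For Ppargc1a ENSRNOG00000015972 reached 0.90, with 60 genes above 0.8. For Slc2a4 ENSRNOG00000020812 reached 0.84, the only gene above 0.8, and for Pdk4 ENSRNOG00000006304 reached 0.69, with 0 genes above 0.8.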

How the data were processed

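Soleus poly-A RNA from 20 rats was sequenced from stranded libraries, per the labels' protocols. The authors deposited whole-number counts per Ensembl gene, as counted; the submitters' processing notes list FastQC 0.10.1, HTSeq and genome build rn6, and the aligner, annotation and strand setting are not given in the sources used here. Groups and columns were matched by label, and 0 rows named no gene. RefSeq's gene table paired 0 of 24613 identifiers with a symbol; the 5 symbols come from the rule that chose the genes.

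Counts were scaled by TMM (trimmed mean of M values), filtered with filterByExpr at a minimum count of 10, and tested with edgeR 4.0.16 (R 4.3.3; glmQLFit, glmQLFTest), in 1 model of group means over all 20 libraries with 15 residual degrees of freedom. Genes were called at a Benjamini-Hochberg adjusted p below 0.05 over 13398 genes. SE is the log2 fold change over the square root of F. Likeness and correlations used log2 CPM with a prior count of 2 and 100000 permutations within groups; ratios added 0.5 to each count. Other settings used DESeq2 1.42.0 and voom in limma 3.58.1. Planned ratios and correlations with the Cd36 row were not made, since it lay at the floor. The tests were checked on simulated counts. Always named were the 5 members, the identifier most like each of the tested members by Pearson r, and members of symbol lists, which could not be applied. Members, lists and settings were chosen with earlier results of these data known. Figures were drawn with matplotlib 3.10.9.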

Additional observations from a re-analysis of the deposited data

Results flagged for a closer look

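In walking library 1 Ppargc1a stood at 22.8 CPM, far from the other 3 walking libraries, of which the next highest was at 11.5 CPM. Among 25 groups of 4 values examined (CPM of the 4 tested genes and the Pdk4 to Slc2a4 ratio) this was the only such library, where chance gives about 1.25.

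The 2 injury groups, which also differ in time after injury, differed in Ppara by the direct test. Transection lay below contusion by a log2 difference of -1.33 (edgeR adjusted p = 6.47e-03).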

How the results depend on the processing

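Over 32 differences of single genes and 18 alternatives each (576 values), 561 kept their side of the threshold, 11 lost a call, 4 gained one and 0 called values turned sign; the 11 were all of Ppargc1a, swimming against contusion, and the 4 of Slc2a4. Signs of uncalled differences turned in 39 values. For swimming against contusion the count of members called fell from 1 to 0 without the low-count filter, with the replicate number as a block (log2 value 1.02, edgeR adjusted p = 0.0547), with the compared groups alone and without transection library 3 and swimming library 2 together; with single libraries left out it ran from 0 to 1. For transection against contusion it was 2 in place of 1 with library totals only and with voom, and for walking against uninjured 1 in place of 0 with DESeq2 and with voom. The replicate block changed no other member's call; same-numbered libraries of different groups correlated at -0.365 to 0.480 (mean 0.0122), and 4 of 20 libraries correlated best with their own number, so the numbers were not taken as pairs. Over all alternatives the number of genes called ran from 1 (without contusion library 1) to 1755 (voom) for swimming against contusion (610 as reported), from 1477 to 3209 for swimming (2702 as reported) and 0 to 388 for walking (66) against uninjured, from 0 to 315 between the exercises (1 as reported), and from 0 to 102 for contusion against uninjured (0). With library totals only, 506 genes were higher and 4211 lower after transection than in uninjured muscle, against 1796 and 1999; 224 and 2297 against 815 and 1267 for transection against contusion; and 293 and 18 against 307 and 303 for swimming against contusion. A robust estimate of the dispersion, added after seeing the data, left the members' values as reported. Ratios of Pdk4 to Slc2a4 stayed uncalled with 1 added to each count, where a single comparison at the smallest possible p could not pass after adjustment. They also did with the replicate block and with each library left out. In those settings the exact test cannot give a p below 0.05 for the groups affected, so that outcome was fixed in advance. With 42 to 389 counts a library, Ppara is the least precisely counted of the 4 genes.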
